A study of Rattus norvegicus with 12 samples.

Results

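The chemokine genes described here are 10 of the 20263 genes in the deposited tables, picked by identifier: CXCL8, CXCL1, CXCL2, CXCL3, CCL2, CCL20, CCL5, CXCL10, CXCL11 and CXCL16. CXCL8 and CCL5 stand at the head of the set because of the size of their changes among the high-glucose groups, so their values are given as a description, with no p-value, and wherever they are counted as past a threshold that too is a description. The others were added as relatives with results of the same comparisons in view, so their tests are not independent of the choice. Of the 10 genes, 9 passed the filter on low values, as did 12854 genes in all, and CCL20 did not.

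RNA was sequenced from 12 libraries labelled H9C2, a wild-type line derived from embryonic rat heart, 3 per group and all harvested at 48 h. HG-Res-SIRT7-Inh cells received 100 mM glucose, 5 µM resveratrol and 5 µM of SirReal2, labelled a SIRT7 inhibitor though widely sold as an inhibitor of SIRT2. HG-Res cells received 100 mM glucose and 5 µM resveratrol, a plant polyphenol used as a sirtuin activator, HG cells 100 mM glucose without drug, and Ctrl cells 5.5 mM glucose without drug. The labels describe no inhibitor-alone group, no vehicle and no osmotic control, and all groups come from this line alone. They call the replicates independent biological ones.

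The identifiers do not match the labelled species. All 20263 carry Ensembl's human prefix ENSG, although the samples are labelled as rat and the submitters' processing notes name rn6. CXCL8 has no rat orthologue, and in the rat RefSeq gene table (GRCr8) 9 of the 10 symbols have an entry and CXCL8 has none. The row of its human identifier, ENSG00000169429, nevertheless held reads in every library. Which species the reads came from was not tested. The files do not pair identifiers with symbols; the 10 symbols come from the rule that chose the genes, and no other gene is named. Cell type markers, chemokine receptors, NF-kB genes and interferon genes were therefore not analysed here, and neither were sequences. Levels are in CPM, which scales each library to the same total but takes no account of gene length, so they compare a gene between libraries and not with another gene. Depth was about 30.3 to 33.2 M reads per library. In a principal component analysis HG-Res-SIRT7-Inh replicate 3 (-50.7) and HG replicate 2 (29.7) stood apart on the first component, which held 56.1% of the variance, while the other high-glucose libraries lay between -17.1 and 14.4. Both are named below where they decide a value.

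Chemokines are small secreted proteins that draw leukocytes along a gradient by binding G protein-coupled receptors. CXCL1, CXCL2, CXCL3 and CXCL8 carry an ELR motif, bind CXCR2 and attract neutrophils. CCL2 attracts monocytes through CCR2, and CCL5 attracts T cells and monocytes. CXCL10 and CXCL11 are interferon-induced ligands of CXCR3. Transcription of many of these genes is switched on by NF-kB after inflammatory stimuli, in fibroblasts, endothelium and muscle cells as well as in leukocytes.

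The neutrophil-attracting genes had their highest values among the high-glucose groups in HG. CXCL8 (ENSG00000169429) was at 1.5, 1.25 and 2.61 CPM in the HG-Res-SIRT7-Inh libraries, 3.85, 3.67 and 5.05 CPM in HG-Res, and 16.07, 15.26 and 16.62 CPM in HG. The 3 groups did not overlap. The mean was 1.79 ± 0.724 CPM in HG-Res-SIRT7-Inh, 4.19 ± 0.750 CPM in HG-Res and 16 ± 0.684 CPM in HG (SD, n = 3 each). HG-Res was thus 3.81-fold lower than HG, and HG-Res-SIRT7-Inh 2.35-fold lower than HG-Res and 8.95-fold lower than HG. On the log2(CPM + 1) scale used for the fits, the differences were -1.72 ± 0.17 (SE) for HG-Res minus HG and -0.92 ± 0.17 for HG-Res-SIRT7-Inh minus HG-Res. In bulk RNA, fewer cells that make a transcript and less transcript per cell cannot be told apart.

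**Figure D1:**
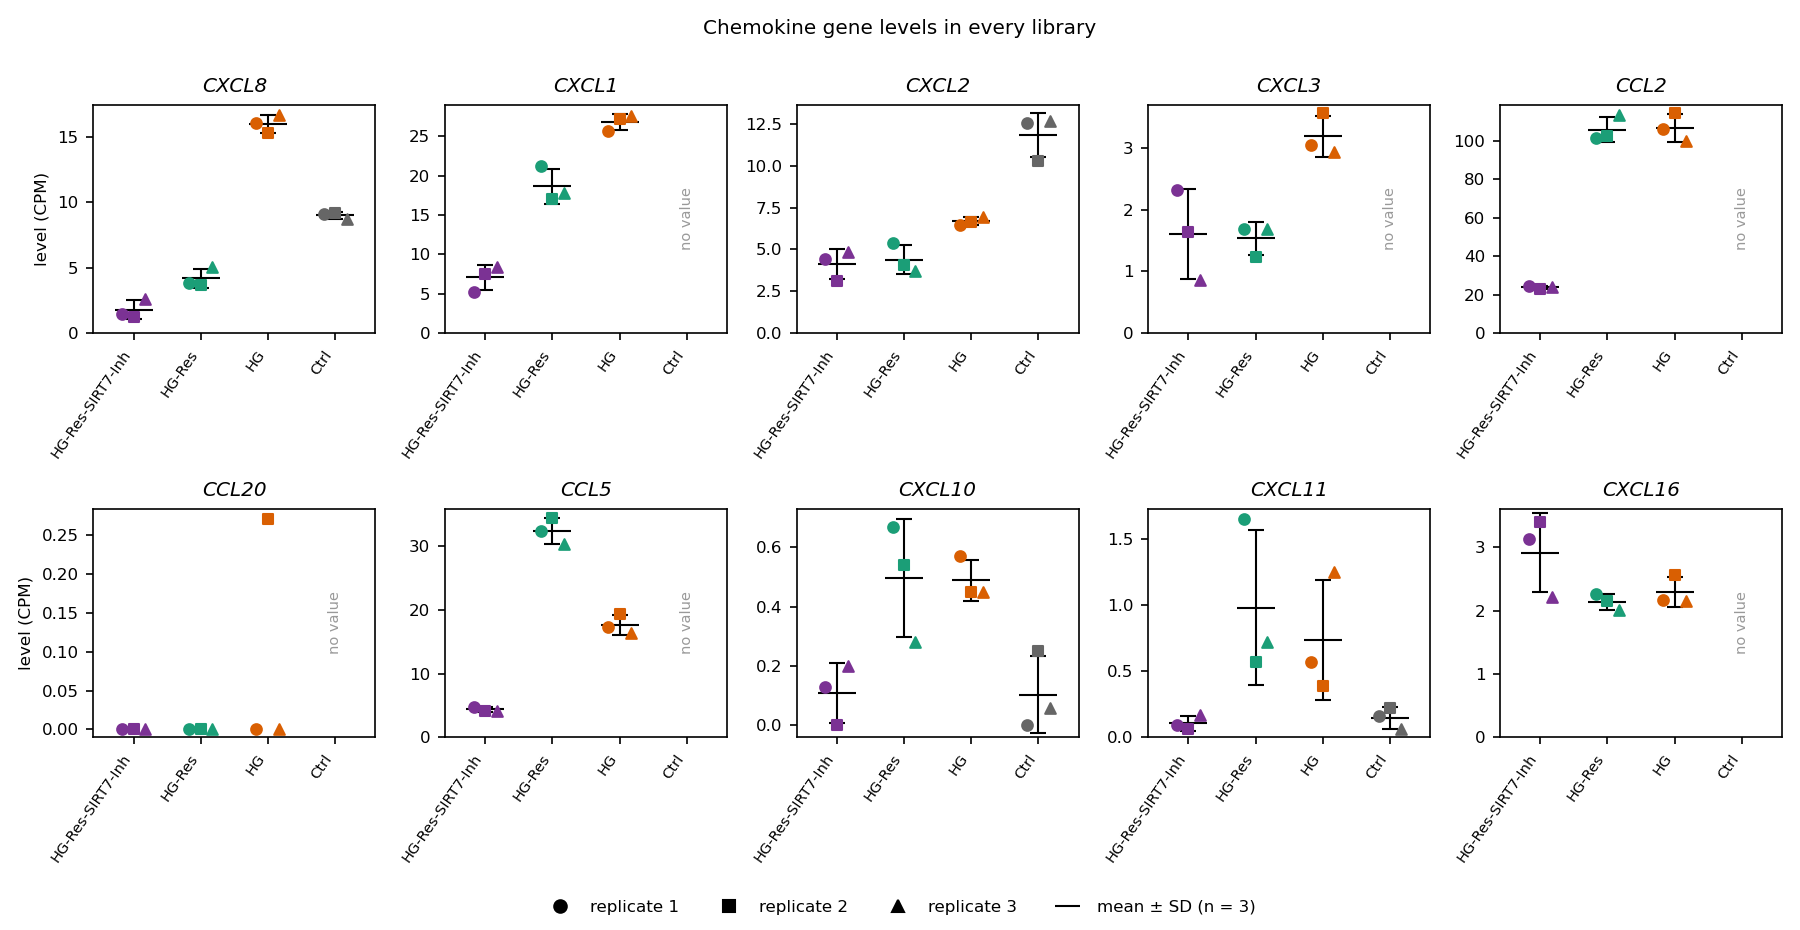
Level in CPM (vertical axis) of each chemokine gene in each library (points, shaped by replicate number) by group, with the mean and SD of 3 replicates, which are not drawn for CCL20. CCL2 and CCL5 sit lowest in the 3 HG-Res-SIRT7-Inh libraries, CXCL8 is lowest with inhibitor and highest in HG, and "no value" marks genes whose Ctrl level was not analysed here.

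CXCL1 (ENSG00000163739), another ELR chemokine, fell when the inhibitor was added. It was at 5.26, 7.58 and 8.39 CPM in HG-Res-SIRT7-Inh, 21.18, 17.04 and 17.74 CPM in HG-Res, and 25.59, 27.23 and 27.58 CPM in HG. These groups did not overlap either. HG-Res-SIRT7-Inh was lower than HG-Res by a log2 difference of -1.30 ± 0.16 (SE, limma adjusted p = 0.00135) and than HG by -1.80 ± 0.16 (limma adjusted p = 0.00014), 3.79-fold lower by the means. Between HG-Res and HG the difference was -0.51 ± 0.16, which did not pass (limma adjusted p = 0.248). It passed with these 2 groups alone in the fit (limma adjusted p = 0.0348), without the 2 libraries that stood apart (limma adjusted p = 0.0361) and in the authors' deposited table (q = 0.00792).

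CXCL2 and CXCL3, close relatives of CXCL1, were lower in the inhibitor group than in HG, and their difference between the inhibitor group and HG-Res did not pass the threshold. CXCL2 (ENSG00000081041) was at 4.41, 3.15 and 4.85 CPM in HG-Res-SIRT7-Inh, 5.38, 4.08 and 3.73 CPM in HG-Res, and 6.48, 6.66 and 6.94 CPM in HG. CXCL3 (ENSG00000163734) was at 2.32, 1.64 and 0.86 CPM in HG-Res-SIRT7-Inh, 1.69, 1.23 and 1.69 CPM in HG-Res, and 3.05, 3.56 and 2.93 CPM in HG. For both genes every library with resveratrol lay below every HG library, and the groups with and without inhibitor overlapped. HG-Res-SIRT7-Inh minus HG-Res was -0.07 for CXCL2 (95% interval -0.42 to 0.27, limma adjusted p = 0.758) and 0.0049 for CXCL3 (-0.42 to 0.43, limma adjusted p = 0.987). Against HG, CXCL2 was lower in HG-Res-SIRT7-Inh by -0.60 ± 0.15 (SE, limma adjusted p = 0.0369) and CXCL3 by -0.72 ± 0.19 (limma adjusted p = 0.0412). These calls were weak. They were lost in 9 of 19 alternatives for CXCL2 and in 12 of 19 for CXCL3, with limma adjusted p up to 0.118 for each. The libraries whose removal ended the CXCL2 call were HG-Res-SIRT7-Inh replicate 2, replicates 2 and 3 of HG-Res, and every HG library. For CXCL3 they were the same libraries and HG-Res replicate 1. HG-Res against HG gave -0.52 ± 0.15 for CXCL2 (limma adjusted p = 0.217) and -0.72 ± 0.19 for CXCL3 (limma adjusted p = 0.171), neither past the threshold. CXCL3 passed without HG-Res-SIRT7-Inh replicate 3 (limma adjusted p = 0.0171), and both did without that library and HG replicate 2 (0.039 for CXCL2 and 0.0126 for CXCL3 in limma).

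CCL2, a monocyte attractant, fell with the inhibitor to a level far under both other high-glucose groups. CCL2 (ENSG00000108691) was at 24.51, 23.21 and 24.13 CPM in HG-Res-SIRT7-Inh, 101.44, 102.73 and 113.54 CPM in HG-Res, and 106.27, 114.33 and 99.94 CPM in HG. Every inhibitor library lay far below the rest, while HG-Res and HG overlapped. CCL2 fell to 24.0 ± 0.668 CPM in HG-Res-SIRT7-Inh, against 106 ± 6.64 CPM in HG-Res and 107 ± 7.21 CPM in HG (SD, n = 3 each). This was 4.42-fold lower than HG-Res, a log2 difference of -2.10 ± 0.10 (SE, limma adjusted p = 4.87e-06), and 4.46-fold lower than HG (limma adjusted p = 2.88e-06). HG-Res minus HG was -0.01, with a 95% interval of -0.23 to 0.21 (limma adjusted p = 0.992). The fall past the threshold held in all 19 alternatives for each comparison, 1 of which is the authors' q-value. Differences from HG-Res ran from -2.14 to -2.05 in the refits, and the authors' deposited table gave a log2 fold change of -2.18.

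CCL5 (ENSG00000271503), which attracts T cells, was high with resveratrol and low with the inhibitor. It was at 4.82, 4.17 and 4.13 CPM in HG-Res-SIRT7-Inh, 32.38, 34.40 and 30.43 CPM in HG-Res, and 17.35, 19.42 and 16.33 CPM in HG. The 3 groups did not overlap, and their order was HG-Res above HG above HG-Res-SIRT7-Inh. HG-Res-SIRT7-Inh averaged 4.37 ± 0.387 CPM, 7.41-fold lower than the 32.4 ± 1.99 CPM of HG-Res and 4.05-fold lower than the 17.7 ± 1.57 CPM of HG (SD, n = 3 each). HG-Res was 1.83-fold higher than HG. The log2 differences were -2.64 ± 0.11 (SE) for HG-Res-SIRT7-Inh minus HG-Res and 0.84 ± 0.11 for HG-Res minus HG. The plot of log2 fold changes sets these beside the other genes, for CCL5 as a description only. Its point lies farthest right in HG-Res against HG and farthest left with the inhibitor against HG-Res.

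**Figure D2:**
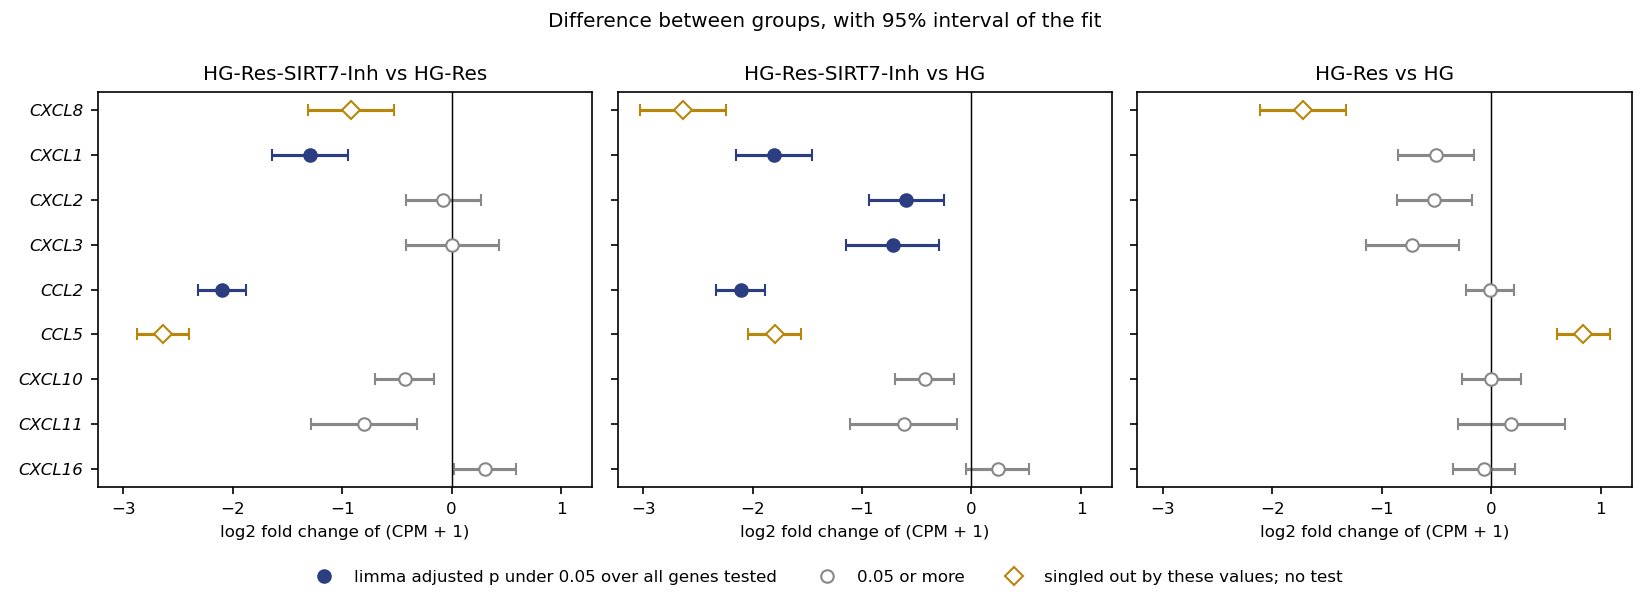
Log2 fold change of CPM + 1 (horizontal axis) with the 95% interval of the limma fit for the 9 chemokine genes that passed the filter, in 3 comparisons of groups with 3 libraries each. CCL2 sits at -2.10 and CCL5 at -2.64 with inhibitor against HG-Res, and in HG-Res against HG the intervals of CCL2, CXCL10, CXCL11 and CXCL16 include 0.

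CCL20, which binds CCR6 on Th17 cells, was close to undetected. The file lists it at 0 in 8 of the 9 high-glucose libraries and at 0.27 CPM, about 9 reads, in HG replicate 2, a library that stood apart. In a library at 0, up to 3 reads remain possible, a level of 0.0939 to 0.099 CPM across those 8 libraries. Such limits cover counting error only.

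The CXCR3 ligands were scarce, and both had their lowest values with the inhibitor. CXCL11 (ENSG00000169248) was at 0.09, 0.06 and 0.17 CPM in HG-Res-SIRT7-Inh, 1.65, 0.57 and 0.72 CPM in HG-Res, and 0.57, 0.39 and 1.25 CPM in HG. CXCL10 (ENSG00000169245) was at 0.13, 0 and 0.20 CPM in HG-Res-SIRT7-Inh, 0.67, 0.54 and 0.28 CPM in HG-Res, and 0.57, 0.45 and 0.45 CPM in HG. For both genes every inhibitor library lay below every other high-glucose library, and HG-Res and HG overlapped. Both entered the fit only through HG-Res and HG libraries, so passing the filter itself required a level there that the inhibitor libraries did not reach. Their p-values against the inhibitor group are therefore not independent of the filter and support no difference.

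The reads behind these values were few. Summed over a group, CXCL11 had about 10 reads in HG-Res-SIRT7-Inh (0.107 CPM, 95% exact Poisson interval 0.0514 to 0.197), 93 in HG-Res (0.979 CPM, 0.79 to 1.2) and 70 in HG (0.729 CPM, 0.568 to 0.92). CXCL10 had about 10 reads in HG-Res-SIRT7-Inh (0.107 CPM, 0.0514 to 0.197), 47 in HG-Res (0.495 CPM, 0.364 to 0.658) and 47 in HG (0.489 CPM, 0.359 to 0.65). The intervals cover counting error, not the spread between cultures. On the log2(CPM + 1) scale, which understates changes of such low genes, neither passed the threshold. HG-Res-SIRT7-Inh minus HG-Res was -0.80 ± 0.22 (SE, limma adjusted p = 0.0615) for CXCL11 and -0.43 ± 0.12 (limma adjusted p = 0.0686) for CXCL10. Against HG, limma gave adjusted p of 0.0999 for CXCL11 and 0.0508 for CXCL10. A pseudocount of 0.1 moved CXCL11 to -2.29 against HG-Res (limma adjusted p = 0.0199). The authors' deposited table gave CXCL11 a q of 0.00151 against HG-Res and 0.0142 against HG, and CXCL10 0.206 and 0.208. CXCL11 passed in 6 of 18 alternatives against HG-Res and in 4 of 17 against HG. CXCL10 passed in 1 of 14 and 5 of 14. With no filter on low values, CXCL10 had a limma adjusted p of 0.0537 against HG-Res and 0.0385 against HG, and CXCL11 0.0799 against HG-Res and 0.124 against HG.

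CXCL16, made as a membrane-anchored protein that binds CXCR6, had its highest group mean with the inhibitor, but the difference did not pass the threshold. CXCL16 (ENSG00000161921) was at 3.13, 3.40 and 2.21 CPM in HG-Res-SIRT7-Inh, 2.26, 2.15 and 2.01 CPM in HG-Res, and 2.17, 2.56 and 2.15 CPM in HG. Replicates 1 and 2 of the inhibitor group lay above all other libraries, and replicate 3, which stood apart, lay among them. The difference was 0.31 ± 0.13 (SE, limma adjusted p = 0.181) from HG-Res and 0.24 ± 0.13 (limma adjusted p = 0.251) from HG. Leaving that replicate out gave 0.44 and 0.37, and both passed (limma adjusted p = 0.0249 and 0.026).

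Counts past an adjusted p of 0.05 are a description, since these comparisons were in view when the genes were chosen. They are given for CXCL1, CXCL2, CXCL3, CCL2 and CXCL16, leaving out CXCL8 and CCL5, which were chosen for their change, and CXCL10 and CXCL11, which passed the filter through the groups where they were high. In limma, 2 of these 5 genes were lower with inhibitor against HG-Res (CXCL1 and CCL2), beside 4.19% of all genes. With inhibitor against HG, 4 were lower (CXCL1, CXCL2, CXCL3 and CCL2), beside 6.50%. In both inhibitor comparisons 0 were higher in limma and by the authors' q-values, beside 1.88% of all genes against HG-Res and 4.27% against HG, and CXCL16 alone was higher at an unadjusted p under 0.05, and only against HG-Res. In HG-Res against HG, 0 were higher, also at an unadjusted p under 0.05 and by the authors' q-values, beside 0.327% of all genes. There 0 were lower, beside 0.381%. By the authors' q-values 2 were lower (CXCL1 and CXCL3), beside 5.38% of all 20263 genes in either direction. With inhibitor against HG-Res, CXCL1 and CCL2 were lower by the authors' q-values, beside a share of 5.65%. With inhibitor against HG, CXCL1 and CCL2 alone were lower by them, beside 5.20%. There CXCL2 (authors' q = 0.108) and CXCL3 (authors' q = 0.136) did not pass. At an unadjusted p under 0.05, 3 were lower in HG-Res against HG (CXCL1, CXCL2 and CXCL3). No share of all genes was counted at an unadjusted p, so nothing is read from those counts. The share of all genes past the threshold in either direction turned on single libraries. Leaving out each of the 9 libraries in turn moved it between 2.11% and 13.8% for the inhibitor group against HG-Res (6.07% with all), between 4.24% and 21.0% against HG (10.8% with all), and between 0.148% and 6.24% for HG-Res against HG (0.708% with all). The highest share against HG-Res came without replicate 1 of the inhibitor group, and the highest in each comparison with HG came without its replicate 3. Without the 2 libraries that stood apart, the share was 18.9% with inhibitor against HG-Res, 31.2% with inhibitor against HG and 21.5% in HG-Res against HG, where 3 of the 5 genes were then lower (CXCL1, CXCL2 and CXCL3). The median log2 difference of the 5 genes was -0.07 with inhibitor against HG-Res, beside 0.04 over all 12854 genes, -0.72 with inhibitor against HG, beside 0.04, and -0.51 in HG-Res against HG, beside -0.00054. Replicates of HG-Res-SIRT7-Inh lay wholly below those of HG in 4 of the 5, beside 15.3% of all genes, and wholly above in 0, beside 12.8%. Set against HG-Res they lay wholly below in 2, beside 16.0%, and above in 0, beside 17.7%. HG-Res lay wholly below HG in 3, beside 14.8%, and above in 0, beside 15.0%. Nothing particular to chemokines is read from these counts. The comparisons share libraries, so their counts are not separate evidence.

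**Figure D3:**
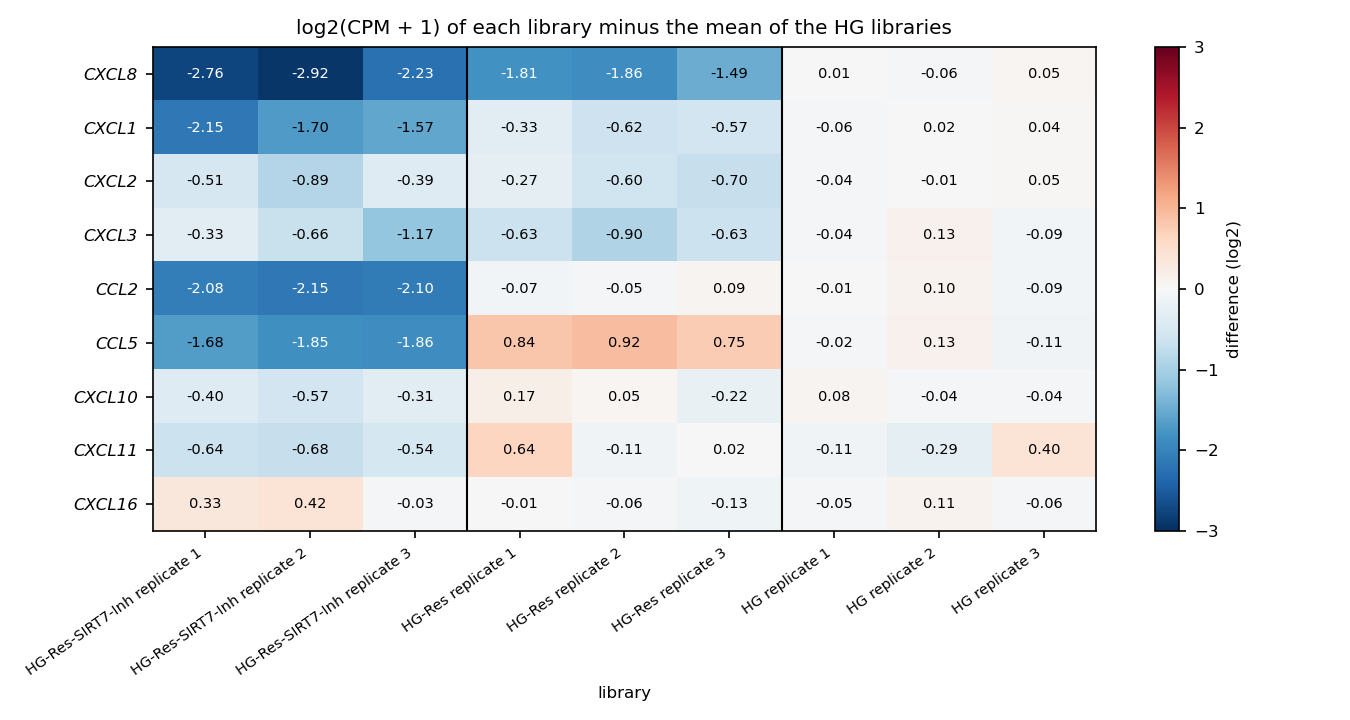
Log2(CPM + 1) of each high-glucose library (columns) minus the mean of the HG libraries, for the 9 chemokine genes that passed the filter (rows); blue is lower and red higher than HG. CCL5 is red in the 3 HG-Res libraries (0.75 to 0.92) and blue in the 3 inhibitor libraries (-1.86 to -1.68), while CXCL3 in the inhibitor libraries runs from -1.17 to -0.33.

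Replicates of the inhibitor group differed in some of these genes and hardly in others, as the heatmap of single libraries shows. CCL2 and CCL5 had SDs of 0.039 and 0.10 on the log2 scale among HG-Res-SIRT7-Inh libraries, below that group's median of 0.242 over all genes. CXCL3, CXCL8 and CXCL1 had SDs of 0.42, 0.36 and 0.31 there. HG-Res-SIRT7-Inh replicate 3 had the highest CXCL8, CXCL1 and CXCL2 of its group and the lowest CXCL3 and CXCL16. Without it and HG replicate 2, the HG-Res-SIRT7-Inh minus HG-Res difference was -1.12 for CXCL8, -1.42 for CXCL1, -2.10 for CCL2 and -2.60 for CCL5.

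The genes closest to each other across the 9 high-glucose libraries were CCL2 and CCL5 (Pearson r = 0.946 of log2(CPM + 1)) and CXCL1 and CCL2 (r = 0.936). CXCL8 lay closest to CXCL1 (r = 0.89), while CXCL3 and CCL5 had r = 0.186. Among 11991 genes with a mean of at least 1 CPM, those most like CXCL8 were ENSG00000171951 (r = 0.994) and ENSG00000147010 (r = 0.991). Those most like CCL5 were ENSG00000163814 (r = 0.995) and ENSG00000142871 (r = 0.994). All these values describe 9 libraries that share 3 group means, and no test was made of them. ENSG00000171951 averaged 8.76 ± 0.909 CPM in HG-Res-SIRT7-Inh, 12.4 ± 0.817 CPM in HG-Res and 19.4 ± 0.212 CPM in HG (SD, n = 3 each), the order seen for CXCL8. ENSG00000163814 averaged 7.60 ± 0.429 CPM, 14.1 ± 0.385 CPM and 11.8 ± 0.639 CPM in those groups, the order seen for CCL5.

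Cells in high glucose without drug could be set beside Ctrl cells for 4 of the 10 genes, and with no osmotic control glucose and osmolarity cannot be told apart. The authors' deposited table of HG against Ctrl holds 354 genes, each with an unadjusted p under 0.05 and a fold over 1.5, which is 1.75% of the 20263 genes in the other tables (0.469% up and 1.28% down). Of the chemokine genes it lists 3 as up and 1 as down. Ctrl levels of CXCL1, CXCL3, CCL2, CCL20, CCL5 and CXCL16 were not analysed here. CXCL8 was at 16.07, 15.26 and 16.62 CPM in HG and 9.12, 9.16 and 8.70 CPM in Ctrl, a 1.86-fold increase in the authors' deposited table. CXCL2 went the other way, at 6.48, 6.66 and 6.94 CPM in HG and 12.53, 10.30 and 12.64 CPM in Ctrl. The authors' deposited table gave it a log2 fold change of -0.75 (q = 0.000637). Neither gene's groups overlapped, which adds no support, since the list holds only genes marked for a difference between these groups.

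CXCL10 and CXCL11 were marked as higher in HG than in Ctrl, at few reads. CXCL11 was at 0.57, 0.39 and 1.25 CPM in HG and 0.16, 0.22 and 0.06 CPM in Ctrl. CXCL10 was at 0.57, 0.45 and 0.45 CPM in HG and 0, 0.25 and 0.06 CPM in Ctrl. About 70 reads of CXCL11 in HG stood against 14 in Ctrl, and 47 of CXCL10 against 10. The authors' deposited table gave unadjusted p of 0.00129 for CXCL11 and 0.0201 for CXCL10, with a q of 1 for both, so neither passed after adjustment.

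Set beside Ctrl, the 4 genes ended at different places, with no test of these pairs. CXCL8 in HG-Res-SIRT7-Inh (1.25 to 2.61 CPM) and in HG-Res (3.67 to 5.05 CPM) lay below Ctrl (8.70 to 9.16 CPM). CXCL2, already lower in HG, was lower still in HG-Res-SIRT7-Inh (3.15 to 4.85 CPM) and HG-Res (3.73 to 5.38 CPM), against 10.30 to 12.64 CPM in Ctrl. CXCL10 and CXCL11 in HG-Res-SIRT7-Inh (0 to 0.20 and 0.06 to 0.17 CPM) overlapped Ctrl (0 to 0.25 and 0.06 to 0.22 CPM).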

How the data were processed

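Trimmomatic and rn6 are the tool and build named, per the submitters' processing notes; for aligner, counter, annotation and test, the entry is "not given in the sources used here". The deposited value columns are headed TPM but behave as CPM: each full column sums to the same total, and low values are multiples of a step of 0.0302 to 0.033 CPM shared by all genes. Reads were approximated by dividing by that step. Within 0.1 of a read, 56.1% to 98.2% of low values were whole, since values are rounded to 0.01 CPM, so no count model was used. The authors' deposited log2 fold changes, p-values and q-values were copied where named. Genes with at least 0.5 CPM in 3 of 9 high-glucose libraries were fitted as log2(CPM + 1) with limma 3.58.1 in R 4.3.3 (group means, intensity trend, all 9 libraries, Benjamini-Hochberg over 12854 genes, threshold 0.05). The fit was also run on simulated counts with the same spread in every library and no library standing apart. Those settings differ from these data, so that run does not show how the fit behaves here. Adjusted p-values set the difference between group means against the spread between libraries within groups, estimated from all 9 libraries. No replicate pair within a high-glucose group looked like a duplicate (chi-square per degree of freedom 5.26 to 173 over the 13049 to 13100 genes with enough reads in the pair). In Ctrl it was 1.33 to 2.77 over 286 to 290 genes. All of those come from the list of marked genes, so the question is not decided for Ctrl. Pairs between groups were not compared. Alternatives changed scaling, filter, pseudocount, libraries, block, variance model or test. The genes and lists were chosen with earlier results of these data known; all 10 genes are named, with the 2 genes most correlated with CXCL8 and with CCL5.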

Additional observations from a re-analysis of the deposited data

How the results depend on the processing

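Of 495 alternative values of single genes, 468 from refits and 27 from the authors' deposited tables, 421 kept direction and side of the threshold, 29 lost the call, 28 gained it and 17 changed sign. The voom alternative on approximate reads was chosen after seeing the data. The planned count models were not run, since whole reads were not established. A filter of 1 CPM left no value for CXCL10 and CXCL11. CXCL10 also had none without HG replicate 1 or HG-Res replicate 1 or 2, and none with the 2 groups of an inhibitor comparison alone. CXCL11 had none with the inhibitor group and HG alone in the fit. Counts here are over all 9 genes where they had a value, with CXCL8, CCL5, CXCL10 and CXCL11 included as a description. Between HG-Res and HG, the number of genes past the threshold and lower (1) was 3 with the 2 groups alone (4.84% of all genes then passed in either direction, against 0.708%), 3 by the authors' q-values (5.38%) and 4 without both libraries that stood apart (21.5%), and 1 to 2 leaving out 1 library (0.148% to 6.24%). The number higher (1, CCL5) was 0 to 1, being 0 on leaving out any HG-Res library or HG replicate 1 or 3. With inhibitor against HG-Res, 3 to 5 were lower (4) and 0 to 1 higher leaving out 1 library, and set against HG 4 to 7 (6) and 0 to 1; 1, CXCL16, was higher in each without both libraries. CXCL8 was no longer past the threshold against HG-Res without HG-Res replicate 1 or 3 or HG-Res-SIRT7-Inh replicate 2. Of the 4 genes in the glucose list, 2 (CXCL2 and CXCL8) had a q-value under 0.05, and both were under 0.01. The other 2 (CXCL10 and CXCL11) changed at least 2-fold, so no gene met both conditions. The causes were not tested.

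Sign changes came in differences near 0, none of them past the threshold. For HG-Res minus HG, CCL2 was at 0.0058 with median-of-ratios scaling, 0.037 without both libraries and -0.063 to 0.037 leaving out 1. CXCL10 was at 0.0040 with that scaling, 0.018 in the authors' deposited table and -0.020 to 0.11 in the 6 fits leaving out 1 that kept it. CXCL11 was at -0.049 to 0.383 leaving out 1. For HG-Res-SIRT7-Inh minus HG-Res, CXCL3 was at -0.015 with that scaling, -0.025 with a pseudocount of 0.1, -0.029 with voom and -0.19 to 0.23 leaving out 1, and CXCL2 at -0.176 to 0.072.

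With the replicate number as a block, 1 gene was higher and 1 lower between HG-Res and HG, 0 and 4 with inhibitor against HG-Res, and 0 and 6 with inhibitor against HG, the same genes as without it, while the share of all genes past the threshold was 0.350%, 5.05% and 8.65% in these comparisons with the block, against 0.708%, 6.07% and 10.8% without it. Libraries of the same number did not deviate together (r from -0.55 to 0.64, above 0.1 in 4 of 9 pairs), and a library's best match in another group had its own number in 5 of 18 cases, so the numbers were not taken to pair the libraries.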
